A study of Mus musculus with 4 samples.

Results

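The SOXC genes Sox4, Sox11 and Sox12, the SOXD genes Sox5, Sox6 and Sox13 and the SOXE genes Sox8, Sox9 and Sox10 were examined for SOX3 binding. The reason was that members of these groups can act after the SOXB1 proteins in the neural lineages. The 9 genes were chosen by name and SOX group, with earlier results of these data known, from 22367 protein-coding genes of the GENCODE vM1 annotation. SOX3 ChIP-Seq had been performed on 3 biological replicates of neural progenitor (NP) cells, which had been derived from the mouse R1 line of embryonic stem cells by culture for 4 days in serum-free medium with the N2 and B27 supplements (N2B27). The peaks of each replicate were called separately against DNA of 1 input sample, prepared without antibody from cells grown in the same way. All samples came from the 1 cell line and time point, so binding at other stages was not measured, and neither was expression of the 9 genes in these files.

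SOX proteins bend DNA through an HMG domain that recognises short words such as AACAAT. SOX3 is a SOXB1 protein of proliferating neural progenitors, and SOXB1 proteins can occupy genes that become active only when SOXC proteins replace them in newly formed neurons, or SOXE proteins in glia. SOXD proteins lack a transactivation domain of their own and modify the action of other SOX proteins on shared sites.

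Replicate 1 had 18816 peaks, replicate 2 had 8096 and replicate 3 had 40543. Each peak has a MACS score, which is 10 times the negative log10 of its p-value, and the threshold of 1e-05 corresponds to a score of 50. Library depth affects this score, and the depth is unknown because no read numbers are listed. Scores are therefore set beside their percentile, the percentage of peaks of the same list with a lower score. Peaks that overlapped by at least 1 bp were merged into regions, and a region with peaks of all 3 replicates was called common. Of 51271 regions, 5358 (10.5%) were common. The lists of replicates 2 and 3 shared an exact peak start in 34.5% of 7815 overlapping pairs, against 0.922% for replicates 1 and 2 and 1.63% for replicates 1 and 3, and the cause was not tested. Whether replicates 2 and 3 are fully independent is therefore not known from the lists, and a common region may rest on fewer than 3 independent measurements. In the windows of the 9 genes, 5 of 20 such pairs had the same start, 4 of them in common regions.

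The windows comprised each gene body and 100 kb to each side. They held 96 regions, to which the 3 replicates in turn gave 52, 20 and 69 peaks. Of the 96 regions, 17 (17.7%) were common, 9 had peaks of 2 replicates and 70 had a peak of 1 replicate. The 17 common regions were unevenly divided between the genes. Sox13 had 7, Sox5 had 4, Sox9 had 3, Sox6 had 2 and Sox11 had 1, whereas Sox4, Sox12, Sox8 and Sox10 had 0.

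The sequences below lie in the common region with the best lowest percentile of each gene that had any, with a second region for Sox13. They are from the plus strand of the NCBIM37 (mm9) reference and are limited to 300 bases around the stretch covered in all replicates. Capitals mark SOX words, which are AACAAA or AACAAT in a first form and GACAAA or GACAAT in a second, and the octamers ATGCAAAT and ATGCTAAT bound by POU proteins, on either strand. None of these stretches overlaps an annotated UTR.
Sox11 +21.8 kb, chr12:28005700-28005899: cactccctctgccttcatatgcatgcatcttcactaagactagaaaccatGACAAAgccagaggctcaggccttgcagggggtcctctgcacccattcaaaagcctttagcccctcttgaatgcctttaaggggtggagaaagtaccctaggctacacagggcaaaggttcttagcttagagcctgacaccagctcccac
Sox5 intron 3, chr6:144402938-144403237: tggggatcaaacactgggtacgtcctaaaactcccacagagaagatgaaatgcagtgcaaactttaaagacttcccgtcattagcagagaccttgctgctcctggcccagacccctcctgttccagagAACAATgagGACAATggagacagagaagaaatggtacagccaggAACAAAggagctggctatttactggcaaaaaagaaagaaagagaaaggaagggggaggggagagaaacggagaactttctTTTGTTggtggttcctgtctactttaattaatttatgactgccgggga
Sox6 downstream, chr7:122558900-122559190: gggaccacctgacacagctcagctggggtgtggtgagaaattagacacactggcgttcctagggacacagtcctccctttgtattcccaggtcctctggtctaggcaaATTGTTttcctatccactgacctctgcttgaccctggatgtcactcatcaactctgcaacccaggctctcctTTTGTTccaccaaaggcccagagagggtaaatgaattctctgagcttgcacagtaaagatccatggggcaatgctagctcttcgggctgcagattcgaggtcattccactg
Sox13 intron 1, chr1:135294255-135294554: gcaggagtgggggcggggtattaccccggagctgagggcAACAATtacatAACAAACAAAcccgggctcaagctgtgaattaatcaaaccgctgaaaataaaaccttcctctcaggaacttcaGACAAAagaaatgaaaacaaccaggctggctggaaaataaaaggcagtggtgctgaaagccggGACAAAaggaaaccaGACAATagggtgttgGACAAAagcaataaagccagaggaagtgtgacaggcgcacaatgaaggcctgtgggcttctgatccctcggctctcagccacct
Sox13 upstream, chr1:135389093-135389392: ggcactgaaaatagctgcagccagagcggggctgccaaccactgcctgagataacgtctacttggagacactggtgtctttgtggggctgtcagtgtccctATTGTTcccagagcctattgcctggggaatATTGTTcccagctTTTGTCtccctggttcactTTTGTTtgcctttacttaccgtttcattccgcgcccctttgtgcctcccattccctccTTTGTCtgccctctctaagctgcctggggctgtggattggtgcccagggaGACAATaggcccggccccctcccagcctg
Sox9 +29.0 kb, chr11:112672464-112672763: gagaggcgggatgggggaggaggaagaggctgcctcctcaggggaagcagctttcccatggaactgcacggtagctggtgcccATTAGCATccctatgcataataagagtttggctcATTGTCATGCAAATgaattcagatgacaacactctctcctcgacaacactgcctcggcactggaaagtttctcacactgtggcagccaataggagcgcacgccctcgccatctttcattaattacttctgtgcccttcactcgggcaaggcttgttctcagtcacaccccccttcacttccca

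**Figure D1:**
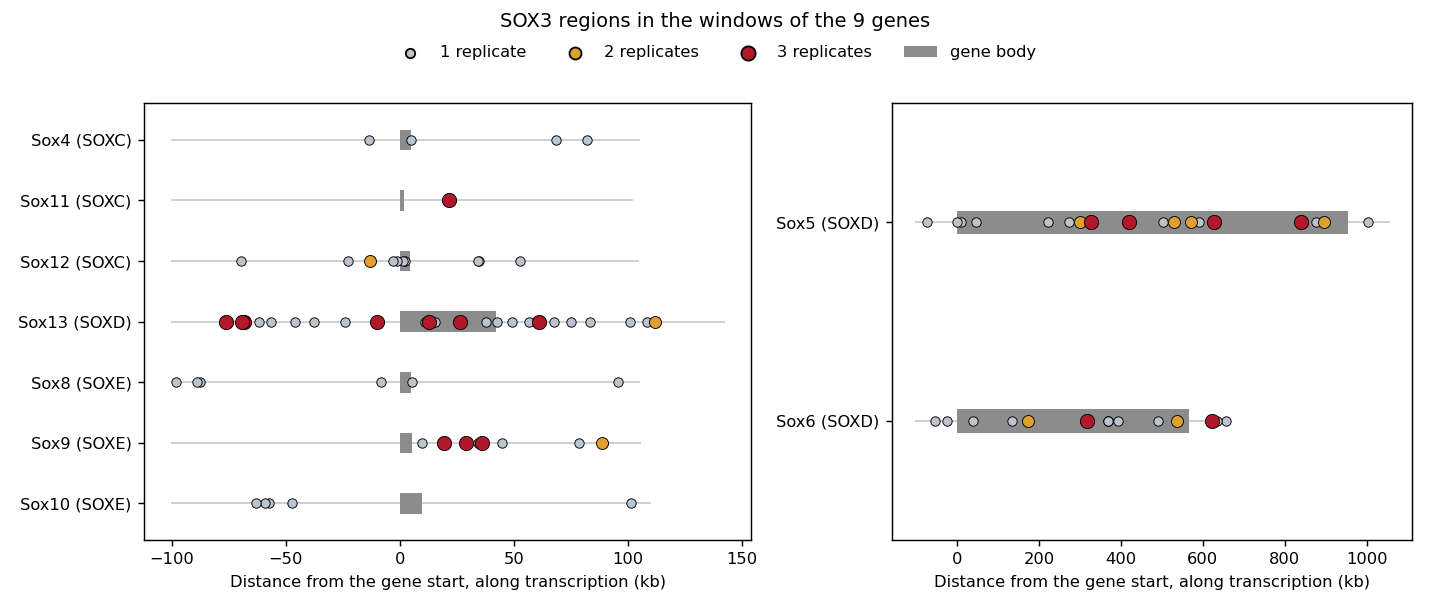
Positions of the 96 regions around the 9 genes. The x axis is the distance from the annotated start of the gene along its direction of transcription in kb, with a wider scale for Sox5 and Sox6, grey bars are gene bodies, thin lines are windows, and the size and colour of a point give the number of replicates with a peak. The 17 common regions lie in introns or outside the gene bodies of the 9 genes, and none lies within 2000 bp of a transcript start of these genes. One in the Sox13 window lies at a start of Etnk2.

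Most common regions of these genes lay far from a start. Among the 17 common regions, 7 had their middle in an intron, 4 lay upstream of the gene and 6 lay downstream. The distance to the nearest transcript start of the gene ranged from 4.60 to 409 kb, with a median of 33.5 kb, and 15 of 17 were more than 10 kb away. Measured to the nearest start of any protein-coding gene, 14 of 17 were over 10 kb away, with a median of 33.5 kb, beside 64.9% and a median of 23.7 kb for all common regions. The middle lay in a protein-coding gene body for 41.2% of the 17, close to the 39.8% of all common regions. None of the 9 genes had a common region within 2000 bp of a transcript start, which 4.79% of all protein-coding genes did, so that 0 of 9 is near this background. For 16 of 17 regions, the gene itself had the nearest protein-coding start. The exception was chr1:135259750-135260243 in the Sox13 window, 153 bp from a start of Etnk2, an ethanolamine kinase gene. The windows of Sox5, Sox9 and Sox11 overlapped 0 other protein-coding genes, which favours this outcome, and no matching share was computed for all common regions. Nearness does not show which gene a region acts on, and this was not tested.

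By group, the SOXD windows had 13 common regions in 2.16 Mb, the SOXE windows had 3 in 0.620 Mb and the SOXC windows had 1 in 0.611 Mb. This amounts to 6.01, 4.84 and 1.64 common regions per Mb, beside a mean of 3.27 per Mb over the windows of all protein-coding genes and 2.02 per Mb over the chromosomes. The order of the groups rests on single genes, and the SOXC value on 1 region. With 200 kb to each side, SOXC and SOXE had 5 common regions each. Within SOXD, Sox13 had 28.9 common regions per Mb, against 3.47 for Sox5 and 2.61 for Sox6, and within SOXE all 3 were near Sox9. At least 1 common region was present for 5 of 9 genes, beside 42.2% of all protein-coding genes. Sox13 stood apart, because 0.827% of protein-coding genes had 7 or more common regions in the same kind of window.

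**Figure D2:**
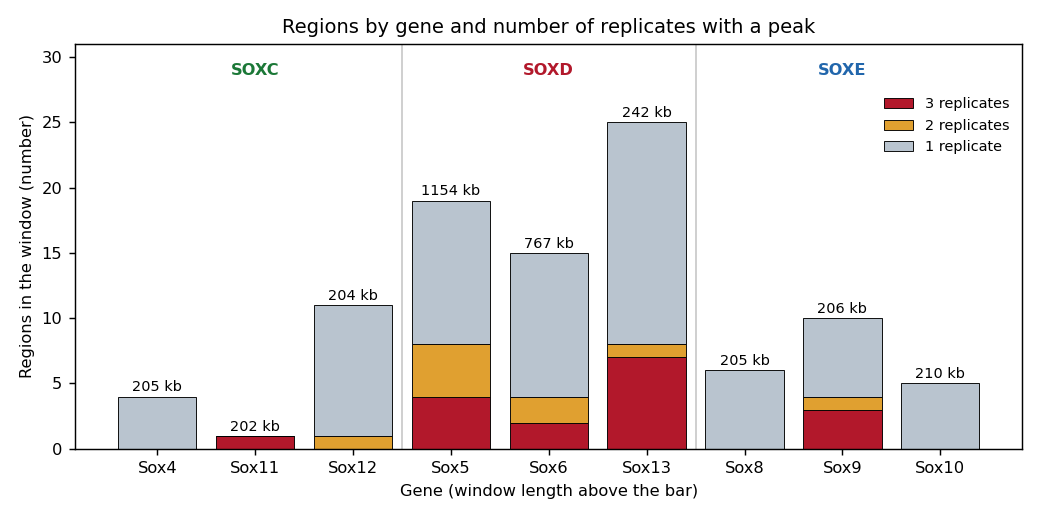
Number of regions in the window of each gene. The y axis counts regions, colours give the number of replicates with a peak, and the window length is printed above each bar. Sox13 has 25 regions with 7 common in a window of 242 kb, whereas the longer Sox5 window of 1154 kb has 19 with 4 common.

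**Figure D3:**
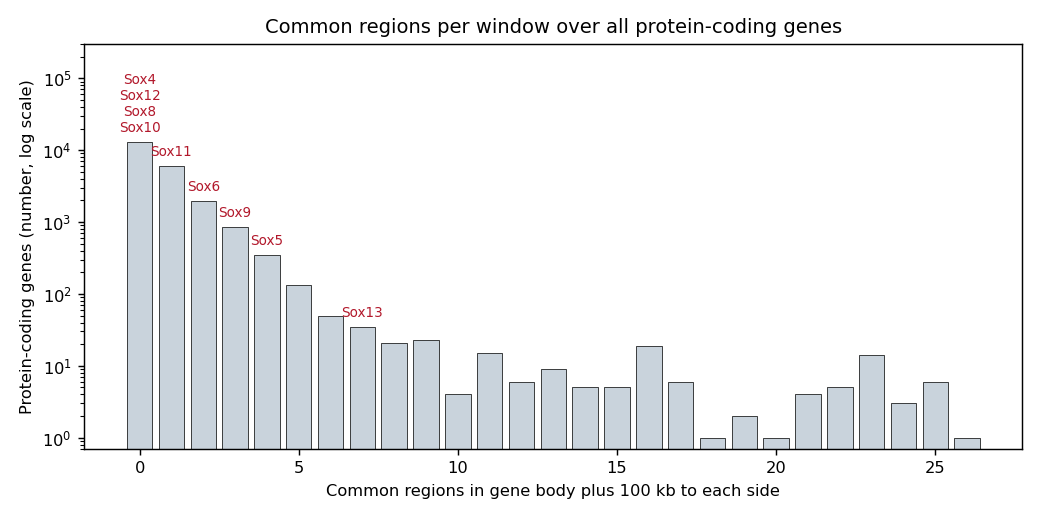
Number of protein-coding genes (log scale) by the number of common regions in the gene body plus 100 kb to each side. The 9 genes are named above the bar to which they belong, from 0 for Sox4, Sox12, Sox8 and Sox10 to 7 for Sox13.

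Sox13 (ENSMUSG00000070643; chr1:135278880-135320954, minus strand), a SOXD gene also known for its role in gamma delta T cells, had the strongest binding. The region in intron 1 of Sox13-002 at chr1:135294049-135294848 had scores of 3100, 2663 and 3100 in replicates 1, 2 and 3. These were rank 1, rank 3 and rank 3 of their lists, with ties at 3100, a score that 7 peaks of replicate 1 and 29 of replicate 3 reached or passed. When the 5358 common regions were ordered by their lowest percentile, none was above this region and 99.91% were below it. The peaks of replicates 2 and 3 began at the same base here. It lay 26.5 kb inside the gene and 4.60 kb from the nearest transcript start of Sox13. In the 300 bases printed above there are 7 SOX words, all on the plus strand, and the last 3 begin 15 bp apart from each other.

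A second cluster lay upstream of Sox13. The region at chr1:135388850-135389615, 68.3 kb before the start, had scores of 2012, 1514 and 3049 and was 27th by lowest percentile among the common regions. It held 8 SOX words, the most of the 17 regions, of which 6 are in the printed stretch. A gap of 67 bp separated it from the next region, chr1:135389683-135390393, with scores of 749, 384 and 590.0. The region 76.2 kb upstream had scores of 441, 240.1 and 489, and that 10.2 kb upstream had 285, 268 and 494. The lowest percentile of these 4 upstream regions in any list was 89.2, and no start of another protein-coding gene was nearer to them than that of Sox13.

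The other Sox13 regions were weaker. In intron 1, chr1:135308119-135308541 scored 101, 179 and 299.9, and the region at Etnk2 scored 123, 89.4 and 124. Of the 25 regions in the window, 12 had a peak of replicate 3 alone and 5 of replicate 1 alone. These include a peak of replicate 1 with a score of 55.3 that was 140.0 bp from a start of another Sox13 transcript. Neither of the other replicates had a peak there.

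Sox5 (ENSMUSG00000041540; chr6:143776945-144730497, minus strand), which takes part in the timing of cortical neuron differentiation and in cartilage formation, had all 4 common regions within its gene body of 954 kb. The strongest, chr6:144402739-144403313 in intron 3 of the 13 introns of Sox5-009, had scores of 576, 332 and 662, at the 97.3rd, 93.5th and 98.8th percentiles. It was high in every replicate, with the same peak start in replicates 2 and 3. Its SOX words AACAAT and GACAAT begin 9 bp apart, and a further 2 words lie within the printed bases. It was 327.5 kb from the annotated gene start.

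The other 3 Sox5 regions lay in introns 4, 4 and 10. At chr6:144309773-144310162 the scores were 210.2, 165 and 216, at chr6:144103637-144104033 they were 139.8, 101 and 172, and at chr6:143889905-143890205 they were 169, 82.1 and 135. The last pair extends into the adjoining exons, with the middle in the intron. The region in intron 10 was the single common region of the 17 without a SOX word of either form, but it held 2 matches to the SOX core described below. Sox5 also had 3 regions with peaks of replicates 1 and 3, and at chr6:144199305-144200282 the scores were 520.3 and 99.9. Thus the absence of a peak in replicate 2 kept a region with a high score in replicate 1 out of the common set. Another of these 3, chr6:144159240-144159473, was the single region of 2 replicates near a start among the 9 genes, 1268 bp from a transcript start of Sox5, with scores of 53.0 and 53.5 that were just above the threshold. A peak of replicate 1 alone, with a score of 52.8, lay 212 bp from a further Sox5 start.

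Sox6 (ENSMUSG00000051910; chr7:122614858-123182258, minus strand), the SOXD gene that acts with Sox5 in cartilage and with other factors in interneurons and red cells, had 2 common regions. One lay 55.6 kb past the end of the gene at chr7:122558854-122559224, with scores of 198, 99.4 and 244. The other lay in intron 4 of Sox6-204 at chr7:122865506-122865817, with scores of 82.5, 57.3 and 79.8. The latter had the lowest percentiles of the 17 common regions in each list, at 53.6, 20.6 and 70.3. Of the other 13 regions, chr7:123009593-123010095 in intron 2 had scores of 333 in replicate 1 and 87.8 in replicate 3, with no peak in replicate 2. It contained 7 SOX words.

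Sox9 (ENSMUSG00000000567; chr11:112643538-112649074, plus strand), required for the switch from neurons to glia and for cartilage, had 3 common regions, all downstream, with gaps of 9.22 and 6.54 kb between them. At chr11:112662762-112663148, 19.4 kb from the start, the scores were 257, 138 and 178. At chr11:112672367-112672777, 29.0 kb from the start, they were 413, 185 and 301. At chr11:112679318-112679684, 36.0 kb from the start, they were 128, 106 and 180.5. The middle region was the highest in each replicate, and in the first 2 regions the peaks of replicates 2 and 3 began at the same base. No start of another protein-coding gene lies in the Sox9 window.

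The first 2 Sox9 regions were the only ones of the 17 with a POU octamer (11.8%, 95% Wilson interval 3.29 to 34.3%), a share close to the 11.6% of all common regions. In both, a SOX word is joined to the octamer ATGCAAAT with no base between them and on the opposite strand. The arrangement in the second can be read in the sequence above, and that in the first is given here because it was noticed after the values were seen, with the joined bases in capitals.
Sox9 +19.4 kb, chr11:112662960-112662989: cctccattATTTGCATAACAAAacacagac
Read on the strand of the octamer, the 14 joined bases are tttgttatgcaaat 19.4 kb and attgtcatgcaaat 29.0 kb from the start. Joined words of this kind, with either octamer, were present in 43 of 5356 common regions without unknown bases (0.803%). They were in 1 of 10702 flanking windows, which were as wide as the region and began 2000 bp from either edge. No such word occurred in the 79 regions of the 9 genes with 1 or 2 replicates (Wilson upper limit 4.64%). As the arrangement was picked from these regions, its frequency in them was not tested.

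Sox11 (ENSMUSG00000063632; chr12:28025562-28027574, minus strand), a SOXC gene that activates neuronal genes in new neurons, had a single region in its window, and it was common. It lay at chr12:28005612-28005962, 21.8 kb from the start and 19.6 kb beyond the gene. The scores of 101, 59.9 and 152 corresponded to the 63.1st, 26.0th and 90.3rd percentiles, so that binding was near the threshold in replicate 2. The printed stretch has GACAAA, and AACAAA lies near the edge of the region outside it.

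Sox4 (ENSMUSG00000076431; chr13:29040788-29045582, minus strand), which acts together with Sox11 in neurons, had 4 regions of 1 replicate each, with a score of 65.6 in replicate 1 and scores of 52.3 to 76.6 in replicate 3. However, the 100 kb limit decided this result. A common region at chr13:28936320-28936970 lay 103.8 kb beyond the gene, with scores of 624, 464 and 751, at or above the 96.7th percentile of each list. A further 2 lay 166 and 168 kb beyond the gene, and all 3 overlapped the lincRNA 2610307P16Rik. The protein-coding start nearest to them was that of Sox4.

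For Sox11, the nearest common region outside the window was 189 kb beyond the gene, with scores of 877, 494 and 769.9, and overlapped the gene Gm9866. For Sox9 it was 172 kb beyond, with scores of 228, 175 and 309.6. With windows of 200 kb to each side, 24 common regions and 7 of the 9 genes were counted, the additional genes being Sox4 and Sox8.

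Sox12 (ENSMUSG00000051817; chr2:152219347-152223782, minus strand), a weaker activator than the other SOXC proteins, had 11 regions and no common region. The best supported, chr2:152236775-152237229, had scores of 154 in replicate 1 and 139.5 in replicate 3, and the nearest start was that of Zcchc3. Replicate 1 alone had peaks 1622 and 1062 bp from the Sox12 start, with scores of 81.5 and 66.8. No SOX word was present in any of these 3 regions. There were 9 other protein-coding genes in the window, and the Sox12 start was the nearest for 4 of the 11 regions.

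Sox8 (ENSMUSG00000024176; chr17:25702837-25707631, minus strand) and Sox10 (ENSMUSG00000033006; chr15:78985343-78994920, minus strand), which act in oligodendrocytes and in the neural crest, had no region with peaks of more than 1 replicate. The 6 Sox8 regions had scores of 115 to 181 in replicate 1 and 53.1 to 113 in replicate 3. The 5 Sox10 regions had a score of 51.1 in replicate 1 and 51.0 to 142 in replicate 3. The gene's own start was the nearest for 1 of the 6 Sox8 regions and for 0 of the 5 Sox10 regions. A common region lay 109.2 kb from Sox8, nearest to the start of Lmf1, with scores of 145, 76.5 and 79.6.

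High ranks were mainly those of Sox13. Over all 17 common regions, the median percentile was 85.9 in replicate 1, 81.0 in replicate 2 and 95.1 in replicate 3, beside 82.6, 65.0 and 92.8 for all common regions of the genome. The medians were 95.7, 90.9 and 98.2 for the 7 Sox13 regions and 83.0, 62.8 and 92.3 for the 10 of the other genes, close to all common regions. The scores of the 17 ranged from 82.5 to 3100 with a median of 210.2 in replicate 1, from 57.3 to 2663 with a median of 165 in replicate 2, and from 79.8 to 3100 with a median of 244 in replicate 3. The lowest percentile was in replicate 2, the shortest list, for 15 of 17. In 5 regions, 4 of Sox13 and 1 of Sox5, every percentile was at least 90, as in 760 of all 5358 common regions. By comparison, the 35 peaks of replicate 1 in regions with fewer replicates had a median percentile of 38.6, and the 50 of replicate 3 a median of 46.7.

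**Figure D4:**
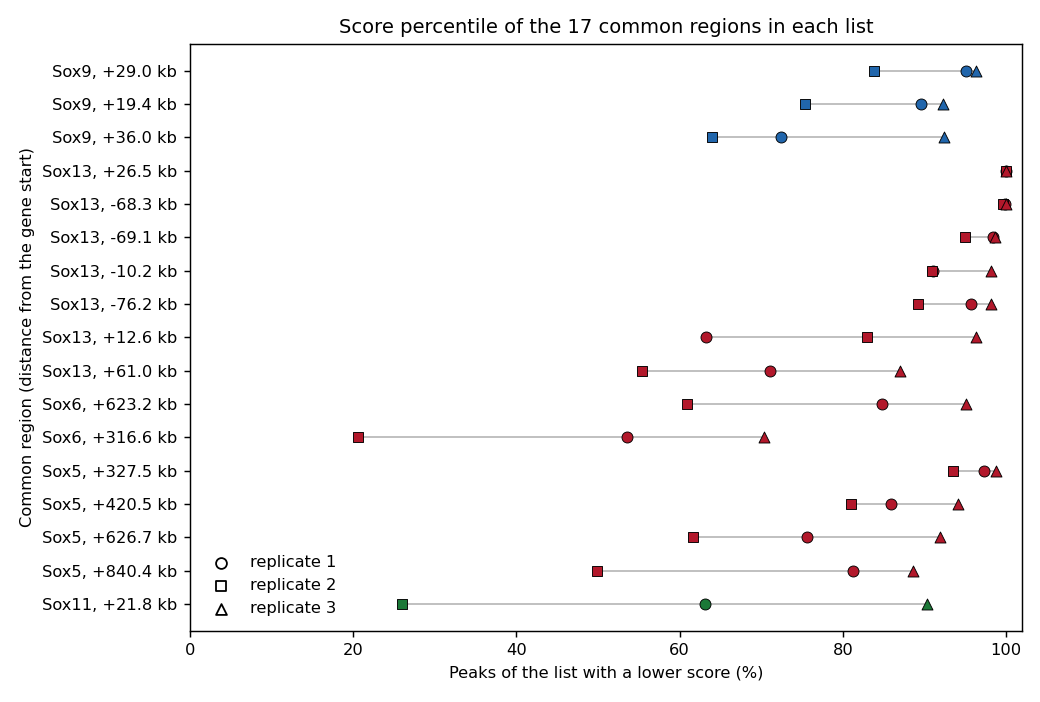
Percentile of the best peak of each of the 17 common regions in each list. The x axis is the percentage of peaks of the list with a lower score, symbols are replicates, colours are SOX groups (green SOXC, red SOXD, blue SOXE), and a line spans the replicates. The Sox13 regions 26.5 kb downstream and 68.3 kb upstream of the start lie above 99 in each replicate, and Sox6 at +316.6 kb is the lowest in each.

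At least 1 SOX word was present in 16 of 17 common regions (94.1%, 95% Wilson interval 73.0 to 98.95%), beside 78.2% of all common regions. In such flanking windows of the 17 regions, the share was 76.5% (60.0 to 87.6%), so the intervals overlap for these words. The SOX core, searched as ACAAAG or ACAATG and the same with A as the last base, has the same length as these words and partly overlaps them. The core was present in 17 of 17 common regions (100%, 81.6 to 100%), beside 82.6% of all common regions and 64.7% (47.9 to 78.5%) of the flanking windows of the 17, whose interval lies below. In flanking windows of all common regions the share was 72.6%.

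Of the 79 regions of these genes with 1 or 2 replicates, most of which were narrower, 50.6% (39.8 to 61.4%) had a SOX word of either form, and this interval lies below that of the 17 common regions. Within 200 bp around the middle, where the width is equal, the shares were 82.4% (59.0 to 93.8%) and 49.4% (38.6 to 60.2%). These 2 intervals overlap slightly. For the SOX core within the same 200 bp, the shares were 94.1% (73.0 to 98.95%) and 53.2% (42.3 to 63.8%), and the intervals do not overlap. All these intervals count each region or flanking window as independent, although 7 of the 17 regions were of Sox13. They may therefore be too narrow, and no test was run. There were 2 or more words in 11 of the 17, with a median of 2 and a highest number of 8, and the widths were 301 to 800 bp with a median of 397 bp. The regions with 8 and 7 words were also the widest, at 766 and 800 bp. Words per region were not counted over all common regions, so whether these numbers are unusual was not tested.

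**Figure D5:**
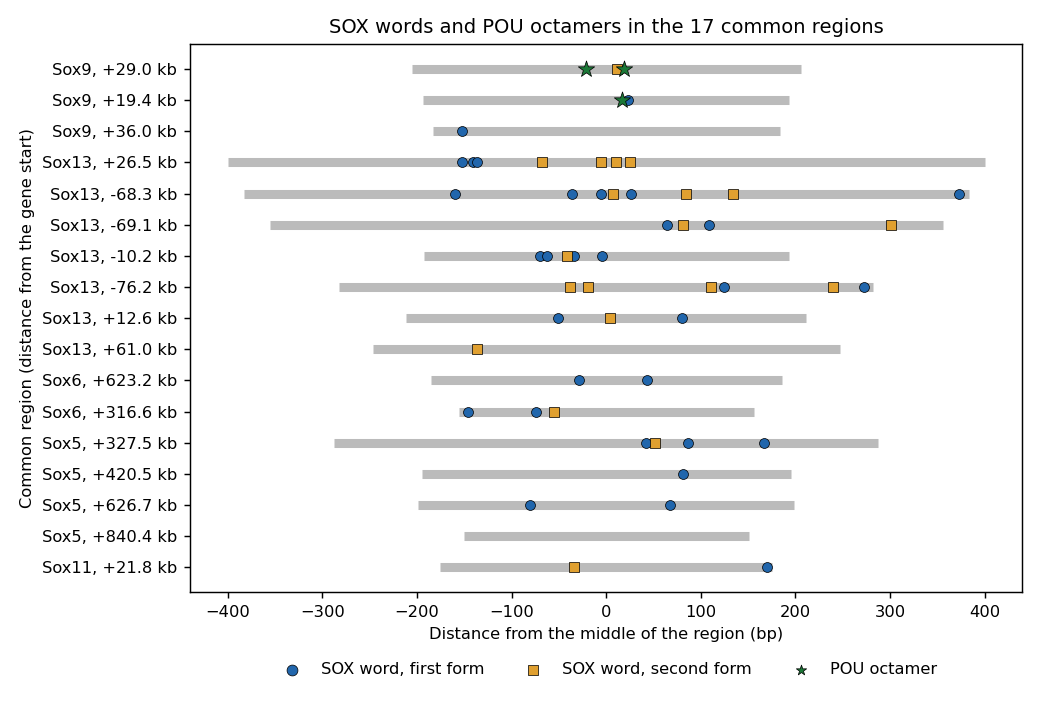
SOX words and POU octamers in the 17 common regions. The x axis is the distance from the middle of the region in bp, grey bars are the regions, circles are AACAAA or AACAAT (first form), squares are GACAAA or GACAAT (second form) and stars are POU octamers. Matches to the SOX core are not drawn. Sox13 regions carry up to 8 SOX words, Sox9 regions the 3 octamers, and Sox5 at +840.4 kb neither.

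Multi-copy sequence can give peaks that belong to several places. A region was called mostly multi-copy when over 50% of its 50-base sequences occur in more than 1 place of the reference, as in 14.7% of all common regions. This was so for 0 of the 17 common regions and for 9 of all 96 regions of the 9 genes, including the Sox5 region of replicates 2 and 3 at chr6:143833900-143834109.

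For other SOX genes, 10 of 11 listed symbols were matched, without Sox1. Sox2, the SOXB1 gene that maintains progenitors, had 4 common regions, Sox3 itself had 0, and the SOXB2 genes Sox14 and Sox21 had 1 each. There were 0 for the SOXF genes Sox7 and Sox17, for Sox30 and for Sry. Sox18 had 1 and Sox15 had 4, of which 0 had the SOX gene's start as the nearest. With 7 common regions, Sox13 had more than any of these. These counts hold only for 100 kb to each side. The paper lists an intergenic SOX3 peak for Sox3 that lies outside this window.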

How the data were processed

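SOX3 ChIP-Seq of NP cells was analysed in 3 biological replicates, and the input was not analysed here. Alignment by the authors was to mm9 using Bowtie (1.0.0 in the submitters' processing notes), and they called the peaks of each replicate with MACS (version not given in the sources used here) at a p-value of 1e-05. As deposited by the authors, the score is the negative log10 of a p-value from MACS, multiplied by 10, without scaling between replicates.

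Peaks were merged into regions and assigned to GENCODE vM1 genes on the NCBIM37 reference, which is mm9. Sox4 has 2 loci with this symbol, and the larger was used. Places of regions refer to their middle. Genes named were the 9 genes, other SOX genes listed by group, and genes whose start was nearest to a common region. Regions given with sequence were the best of each gene by lowest percentile, or the best 2 for genes with 5 or more. Other regions, genes and the joined words were added after their values were seen. Members and lists were chosen with earlier results of these data known. There was 1 group, so no test was run, and intervals are 95% Wilson intervals for counting error. The alternatives tried are given under the limits. On simulated data, 500 of 500 planted regions and 40 of 40 planted words were found. The tools were matplotlib 3.10.9, numba 0.67.0, scipy 1.17.1, numpy 2.4.6 and Python 3.11.15.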

Additional observations from a re-analysis of the deposited data

How the results depend on the processing

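The 17 common regions became 12 at a p-value of 1e-10 or less, where those of the genome fell from 5358 to 2684. The 17 became 25 when peaks of replicate 3 that overlap replicate 1 were counted without regard to replicate 2 (8067 sites in the genome against 5358). With 1 replicate left out, the number ranged from 17 to 23. At a p-value of 1e-10 or less, SOXC had 0 common regions, 3 of the 9 genes had any, and the share with a SOX word was 100%. With 200 kb to each side, SOXC and SOXE had 5 each, including 3 of Sox4, 2 of Sox11 and 1 of Sox8. With 50 kb to each side, Sox13 had 4 and Sox6 had 1. Peaks of replicate 3 that overlap replicate 1 gave 9 for Sox5, 2 for SOXC and 1 gene, Sox5, with a region at a start. Starts within 5000 bp also gave 1 such gene, Sox13. Leaving out 1 replicate gave 1 to 2 common regions for SOXC and 0 to 1 genes with a region at a start. Both higher values came without replicate 2, where Sox5 had 7 common regions and Sox12 had 1. Of all alternative values for counts and shares, 22 were marked as moved and 162 were not. The 162 include changes from 17 to 25 common regions and from 13 to 19 for SOXD. They also include values with little room to change, such as the count of 0 for Sox10 in each setting. These totals therefore do not measure how stable the results are. No paired analysis was possible because the ChIP replicates form 1 group. The number of peaks in replicate 2 limits what can be common, and the lists hold no reads with which to measure weak binding.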
